A study of Homo sapiens with 4 samples.

Results

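The first interval of a doxycycline time course was examined: the library labelled 16 h with doxycycline was set against the library labelled 0 h without it, over every probe set that carries exactly 1 gene symbol. These are 2 of the series' 4 libraries. The probe sets were 19937 of the 33297 probe sets on the array, and they stand for 19088 genes. DG75 is a long-established human cell line derived from Burkitt's lymphoma, and both libraries came from its clone AB7. Per the labels, AB7 is 1 clone, Bcl6-/-, that carries a tetracycline-controlled, HA-tagged BCL6 (tetBCL6-HA), so cells of both libraries share the lost native gene and the transgene. Cells of the 16 h library were grown with 1 µg/ml doxycycline and cells of the 0 h library with none, and the other libraries of the course, at 48 and 96 h with the same dose, are used only to place the first interval. There was 1 library a time, so every value below is a difference between libraries without a test, an error or a replicate check, and time in culture and doxycycline cannot be told apart. Values are log2 intensities of 1-colour arrays as deposited, and a log2 difference is the 16 h level minus the 0 h level.

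BCL6 is a zinc finger repressor that germinal centre B cells need. It recruits corepressors to genes of cell cycle arrest, B cell receptor signalling, the interferon response, costimulation and plasma cell differentiation, and Burkitt's lymphoma arises from cells of that stage. Because the transgene is tetracycline-controlled, the level of BCL6 itself was read first. BCL6 log2 levels over the labelled times of 0, 16, 48 and 96 h were 11.10, 10.58, 10.25 and 10.50. The 16 h level was thus 1.44 times lower than the 0 h level, which is under the 1.5-fold threshold used below. The labels do not say whether doxycycline turns the transgene on or off, so the BCL6 level cannot check them. All directions below are between the library labelled 16 h and the library labelled 0 h. Which stretch of the BCL6 transcript the probe set reads was not checked.

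Genes were kept when their mean log2 level over the 4 libraries was at or above the 40th percentile, 5.18, which left 11453 genes and put 7635 under the filter. A gene under that level at 0 h could thus pass through its level in the other libraries, which bears on every share of genes kept below. Markers of B cells were well measured, with 11 of the 12 measured members kept and log2 levels from 4.43 to 10.93 at 16 h and from 4.37 to 10.75 at 0 h. CD79B, a signalling chain of the B cell receptor, had a log2 level of 9.53 at 16 h, against 9.50 at 0 h. Not all B cell markers were as level: 2 of the 11 kept were at least 1.5-fold higher at 16 h, PAX5 (log2 difference 0.81) and EBF1 (0.86). VPREB3 was the 1 lower marker (-0.59), and it was under 1.5-fold in the second deposited table (-0.54). Of 9 germinal centre and Burkitt markers measured, 7 were kept, with 4 above 0 and a median log2 difference of 0.14. ID3 (1.68) and MYBL1 (0.87) were at least 1.5-fold higher (28.6%, against 4.34% of all genes kept), and 0 were lower by as much. BCL6 (-0.52) and TCF3 (-0.07) were among those below 0. The surface peptidase MME, another of these markers, had 11.06 at 16 h, against 10.59 at 0 h. Markers of other cells were mostly under the filter, with 7 of 15 measured T cell markers kept, 1 of 11 NK cell markers, 2 of 12 monocyte and macrophage markers, 2 of 8 erythroid markers and 6 of 13 fibroblast and epithelial markers. Among these, KRT18, an epithelial keratin, was the sole one past 1.5-fold, with 5.40 at 16 h, against 6.06 at 0 h, and it was under 1.5-fold in the second deposited table (-0.51). CD4, with log2 levels of 8.83 at 16 h and 8.68 at 0 h, was the brightest T cell marker. The array reads RNA of the whole culture, so fewer cells of a type and less RNA per cell cannot be told apart.

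More genes were higher than lower at 16 h. At least 1.5-fold, which is 0.585 on the log2 scale, 497 of the 11453 genes kept were higher (4.34%) and 79 were lower (0.69%), so 5.03% were past it either way, while 53.9% had any higher value. Without the filter 2.73% of genes were higher and 0.55% lower, and of all probe sets with 1 symbol 2.74% were higher and 0.577% lower. At 2-fold, 91 genes were higher and 4 were lower. The median log2 difference over all genes kept was 0.02, the quartiles were -0.14 and 0.20, and the extremes were -1.42 and 3.02. The split between higher and lower genes depended on how the libraries are scaled. Higher genes made up 86.3% of those past 1.5-fold as deposited, 81.2% with quantile scaling, 81.6% with loess scaling and 89.2% in the second deposited table. Centring each library on its median, which was 7.54 at 16 h and 7.43 at 0 h over the genes kept, moved the median difference to -0.08 and gave 324 higher and 236 lower genes, or 57.9% higher. Among the genes named below, APAF1, CD80, DUSP10, EDEM1, EIF2AK2, ELF1, ETS1, HMMR, ID1, IFI35, KDM3A, LILRB1, RIDA, TCF4 and TET2 were under 1.5-fold with that centring. CCND1, CD80, CSRP2, DERL3, DUSP10, GPR183, IFI35, KRT18, LILRB1, TET2 and WASF1 were under it in the second table.

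**Figure D1:**
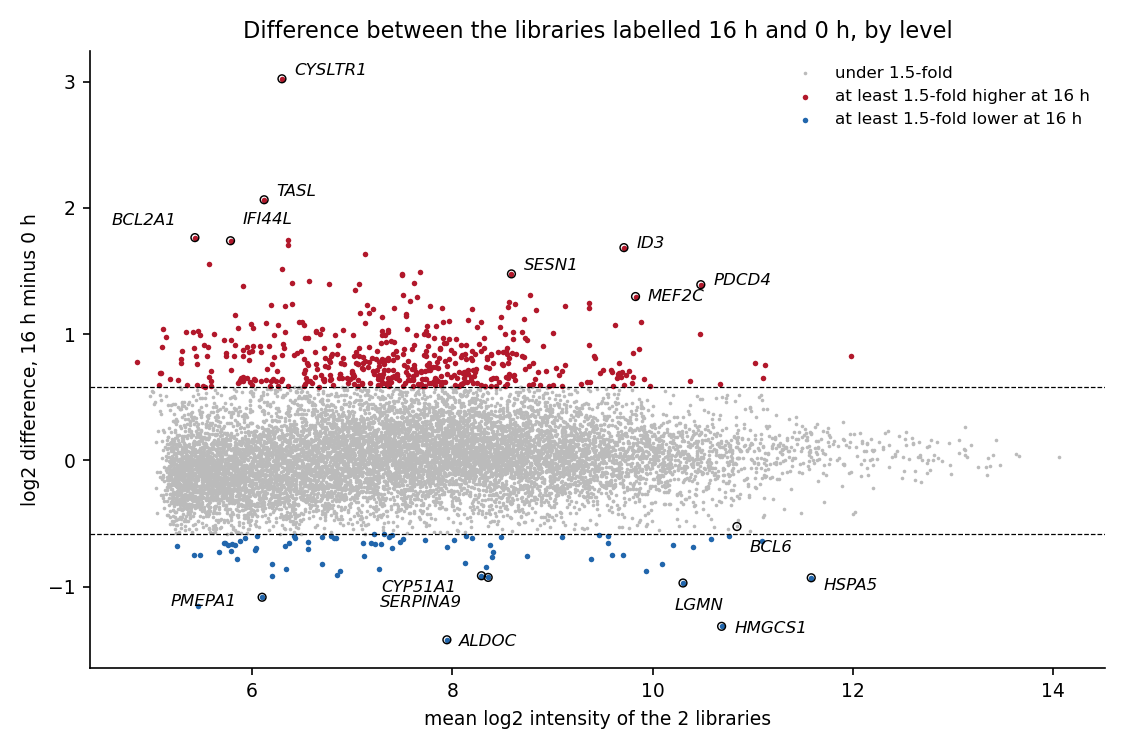
Log2 difference between the libraries labelled 16 h and 0 h (vertical axis) against the mean log2 intensity of both libraries (horizontal axis), 1 point per gene kept. Differences are in log2 units, and dashed lines mark 1.5-fold; 497 genes lie above the upper line and 79 below the lower one, and CYSLTR1 stands highest at 3.02 and ALDOC lowest at -1.42.

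Probe sets of the same gene show how far a difference varies within these arrays. Of 355 genes with 2 or more probe sets past the filter, 65 had identical values in all 4 libraries, and these copies were left out. In the other 290 genes, the differences of the brightest and the second probe set disagreed with an SD of 0.24 and a median absolute disagreement of 0.075. Of the 17 such genes past 1.5-fold, 16 had the second probe set in the same direction and 11 had it past 1.5-fold as well. In the second deposited table all 576 genes past 1.5-fold kept their direction and 426 stayed past 1.5-fold. Both probe sets and both tables read the same 2 RNA samples, so neither stands in for a replicate culture.

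The differences moved with the length of the gene. Genomic span here is the distance between the ends of a gene in the RefSeq annotation of GRCh38.p14, and genes kept were split into 5 groups of equal size by it. Genes at least 1.5-fold higher made up 1.27%, 2.59%, 3.0%, 4.60% and 10.8% of the groups from the shortest to the longest, while lower genes made up 1.27%, 0.637%, 0.819%, 0.41% and 0.091%. The median span was 74.5 kb for the higher genes, 13.3 kb for the lower genes and 25.9 kb for all genes kept. Level moved with the differences too: over all measured genes, the share of higher genes was 0.0786%, 0.734%, 3.20%, 6.60% and 3.06% from the dimmest to the brightest of 5 such groups. Subtracting the trend on span left 366 genes higher and 90 lower. Of the genes named below, APAF1, CD80, CHD7, EDEM1, ELF1, ETS1, INSIG1, LCE1D, MANF, SMARCA2, TCF4 and TET2 were under 1.5-fold after it. So was the B cell marker VPREB3 (-0.52). The part of span or level in the differences was not tested.

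**Figure D2:**
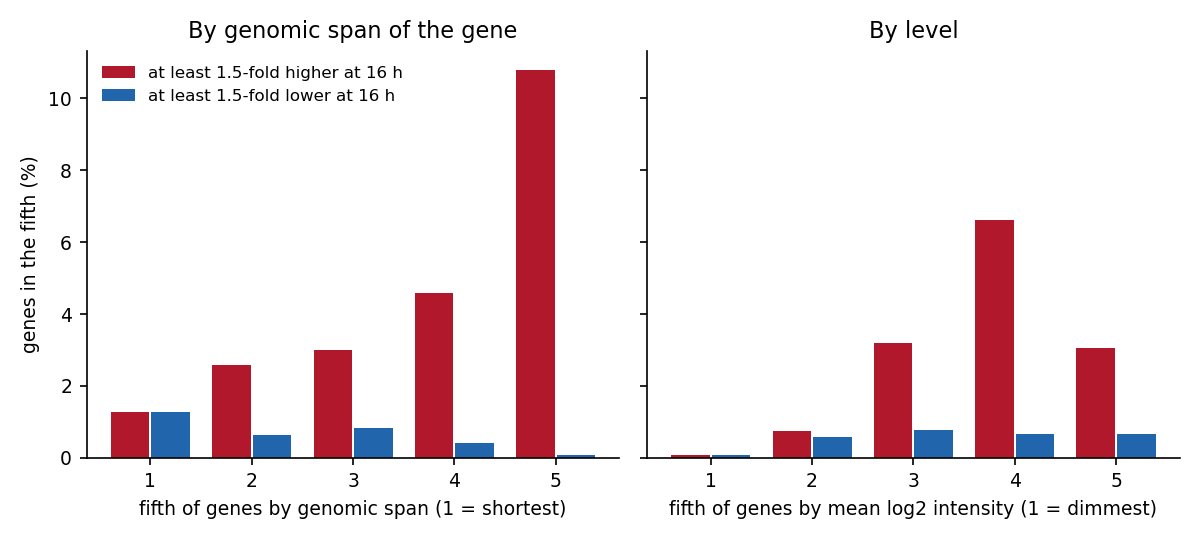
Share of genes at least 1.5-fold higher (red) or lower (blue) at 16 h, set against 0 h, in percent of the genes in each of 5 groups, by genomic span (left, genes kept) and by mean log2 intensity (right, all measured genes). The longest group holds 10.8% higher genes and 0.091% lower ones; the shortest holds 1.27% of each.

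The gene with the largest difference was CYSLTR1, a receptor for cysteinyl leukotrienes. Its log2 level was 7.81 at 16 h, against 4.79 at 0 h, which is 8.12-fold higher. Its later levels were 7.85 at 48 h and 8.74 at 96 h. TASL, an adaptor that links endosomal Toll-like receptors to IRF5, had a log2 level of 7.15 at 16 h, against 5.09 at 0 h (4.18-fold). BCL2A1, an antiapoptotic relative of BCL2, had 6.31 at 16 h, against 4.55 at 0 h (3.40-fold). GPR174, a receptor for lysophosphatidylserine, had 7.23 at 16 h, against 5.48 at 0 h (3.36-fold). All 4 genes were close to the level of the filter or under it at 0 h. In the second deposited table, which has a higher floor, their differences were 2.46, 1.66, 1.27 and 1.46.

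Several of the other large differences were in signalling and cytoskeletal genes. GPRIN3, a membrane protein of a family that binds G proteins, had a log2 level of 7.95 at 16 h, against 6.31 at 0 h (3.10-fold). ARHGAP15, a GTPase-activating protein for Rac, had 8.23 at 16 h, against 6.77 at 0 h (2.76-fold). RASSF6, of the Ras association domain family, had 8.42 at 16 h, against 6.93 at 0 h (2.81-fold). These 3 were measured by 1 probe set each and stayed past 1.5-fold under every alternative that kept them. GAB1, an adaptor of receptor and B cell receptor signalling, had 7.77 at 16 h, against 6.37 at 0 h (2.63-fold), but its second probe set differed by -0.29 and the mean of its probe sets by 0.55, under 1.5-fold. LRRN3, a leucine-rich repeat membrane protein, and SCN3A, a voltage-gated sodium channel, were higher by 1.70 and 1.55 on the log2 scale. HIVEP2, a zinc finger factor, MAML3, a Notch coactivator, and ANKRD44, an ankyrin repeat protein, were higher by 1.48, 1.39 and 1.41. The 20 largest differences spanned 2.62-fold to 8.12-fold, and 5 of these genes had a 0 h level under the filter level. Their median span was 61.6 kb.

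Of the genes that interferons induce, many had higher levels at 16 h. Interferons act through JAK kinases, STAT proteins and IRF factors on a shared promoter element, the interferon-stimulated response element, and several interferon-induced genes, such as the OAS and IFIT genes, act against viral RNA. Of 44 interferon-induced genes measured, 32 were kept, and of these 16 were at least 1.5-fold higher and 0 lower, with 30 of 32 above 0. That is 50% of those kept, against 4.34% of all genes kept, and the list's median log2 difference was 0.55, against 0.02. IFI44L had a log2 level of 6.65 at 16 h, against 4.91 at 0 h (3.34-fold). PARP9 had 7.28 at 16 h, against 5.86 at 0 h (2.67-fold), and its partner ubiquitin ligase DTX3L had 7.81 at 16 h, against 6.78 at 0 h (2.04-fold). SAMD9L, a growth-restraining antiviral factor, had 6.60 at 16 h, against 5.22 at 0 h (2.60-fold). SP110, a nuclear body protein, had 8.02 at 16 h, against 6.81 at 0 h (2.31-fold), and OAS2, a sensor of double-stranded RNA, had 7.21 at 16 h, against 6.17 at 0 h (2.06-fold). The others past 1.5-fold were IFI44 (1.17), XAF1 (1.10), PLSCR1 (1.07), SAMD9 (0.93), IFIT1 (0.90), TRIM5 (0.84), USP18 (0.82), OAS1 (0.77), EIF2AK2 (0.67) and IFI35 (0.61), all log2 differences. The list was not uniform: ISG15, the ubiquitin-like modifier, was at 6.46 at 16 h, against 6.75 at 0 h, and CMPK2, a mitochondrial nucleotide kinase, at 5.10 against 5.45. Some members, such as IFI44L and IFIT1 (4.66 at 0 h), were under the filter level at 0 h and passed it through the other libraries. Without the filter 16 of the 44 measured were higher, against 2.73% of all genes, and the list's median was 0.36. IFI35 was under 1.5-fold under all 3 rescalings and in the second table.

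Several interferon genes were higher still in the later libraries. IFI44L had log2 levels of 4.91, 6.65, 7.60 and 10.50 over the 0, 16, 48 and 96 h libraries. IFI44 had 6.49, 7.66, 8.21 and 9.02 over the same libraries. OAS2 had 6.17, 7.21, 7.39 and 8.84 over the same libraries. TRIM5, a retroviral restriction factor, did not follow these, with 6.99, 7.83, 7.75 and 7.74 over the same libraries.

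The interferon system's own receptors, kinases, factors and sensors were taken as a list. Of 26 kept among 31 measured, 7 were at least 1.5-fold higher and 0 lower (26.9%, against 4.34%), 25 were above 0, and the median was 0.34. Apart from TASL these were the RNA sensors IFIH1 (6.26 at 16 h, against 5.31 at 0 h) and RIGI (5.70 at 16 h, against 4.89 at 0 h), the factors IRF1 (7.51 at 16 h, against 6.62 at 0 h) and IRF2 (7.66 at 16 h, against 6.88 at 0 h), the kinase JAK2 (6.36 at 16 h, against 5.57 at 0 h) and the signal transducer STAT2 (7.89 at 16 h, against 7.14 at 0 h). Of the receptor chains none was past 1.5-fold: IFNAR1 differed by 0.33, IFNAR2 by 0.49, IFNGR1 by 0.07 and IFNGR2 by 0.38. IRF7, an amplifier of interferon production, was at 6.80 at 16 h, against 6.66 at 0 h, and MYD88, the Toll-like receptor adaptor, was lower, at 8.30 at 16 h, against 8.43 at 0 h.

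Promoters of these genes were searched for the core of the interferon-stimulated response element, GAAA and GAAA with any 2 bases between them, on both strands, in RefSeq windows of GRCh38.p14 that run from 250 bases before to 50 bases after a gene's start. The core was in 996 of 27305 promoters (3.65%), in 223 of the 8762 promoters of genes kept (2.55%), in 28 of 423 promoters of genes at least 1.5-fold higher (6.62%) and in 0 of 47 promoters of lower genes. It was in 18 of the 27 promoters found for the interferon-induced genes kept and in 8 of the 14 promoters of their members past 1.5-fold. A match is a description of the letters and not a site shown to be bound. The following promoters were chosen among those of higher genes that hold the core, so they do not show how many leading genes have it. The promoter of SP110, a gene higher by 1.21, held no core. The first match in each printed promoter is given 5′ to 3′ on the gene's strand, with the core (or its reverse complement) in capitals. Each match has 15 flanking bases on each side.
IFI44L (chr1:78620269-78620308, + strand): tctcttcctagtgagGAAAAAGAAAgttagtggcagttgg
IFI44 (chr1:78649756-78649795, + strand): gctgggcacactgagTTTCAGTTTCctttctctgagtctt
DTX3L (chr3:122564317-122564356, + strand): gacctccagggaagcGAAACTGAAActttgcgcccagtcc
PLSCR1 (chr3:146544662-146544701, - strand): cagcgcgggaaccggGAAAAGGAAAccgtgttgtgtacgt
BCL2A1 (chr15:79971305-79971344, - strand): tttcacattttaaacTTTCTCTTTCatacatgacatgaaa
GPR174 (chrX:79144516-79144555, + strand): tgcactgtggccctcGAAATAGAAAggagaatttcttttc
The interferon genes IFI44 and DTX3L hold the forms TTTCAGTTTC and GAAACTGAAA, which are reverse complements of each other. In IFI44L and PLSCR1, and in BCL2A1 and GPR174, which are not on the interferon list, the core has other letters at its 2 free bases.
The BCL6 consensus core TTCCTAGAA, searched in the same way, was in 110 of 27305 promoters (0.403%), in 21 of 8762 promoters of genes kept (0.24%), and in 0 of 423 promoters of higher genes and 0 of 47 of lower genes, which says only that these letters are not in those windows.

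Most genes of sterol synthesis had lower levels at 16 h, and 5 of 20 passed 1.5-fold. The pathway turns acetyl-CoA into cholesterol through mevalonate and squalene, and its genes share a control by SREBP2, a factor that sterols hold back. All 20 members measured were kept, and 5 were at least 1.5-fold lower and 0 higher (25%, against 0.69% of all genes kept). The median log2 difference was -0.48, against 0.02, and it lay between -0.54 and -0.46 relative to that of all genes under the alternatives. HMGCS1, which makes the precursor of mevalonate, had a log2 level of 10.03 at 16 h, against 11.35 at 0 h, or 2.49 times lower. CYP51A1, the lanosterol demethylase, had 7.83 at 16 h, against 8.75 at 0 h (1.88 times lower). DHCR7, which makes cholesterol in the last step of one branch, had 9.33 at 16 h, against 10.07 at 0 h, MVD, the mevalonate decarboxylase, had 8.04 at 16 h, against 8.71 at 0 h, and LSS, the lanosterol synthase, had 7.70 at 16 h, against 8.33 at 0 h. SQLE, the squalene epoxidase, was lower by less than 1.5-fold, with 10.35 at 16 h, against 10.88 at 0 h. IDI1, the isopentenyl isomerase, differed by -0.52. PMVK and TM7SF2 were the 2 members above 0, by 0.21 and 0.16.

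In some of these genes the later libraries lay nearer to 0 h. DHCR7 had log2 levels of 10.07, 9.33, 9.74 and 9.62 over the 0, 16, 48 and 96 h libraries. LSS had 8.33, 7.70, 8.13 and 8.02 over the same libraries. HMGCS1 had 11.35, 10.03, 10.40 and 10.35 over the same libraries, so 16 h was its lowest library.

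Uptake and control genes of the same system did not move as one. Of 11 kept, INSIG1, an SREBP2 target that restrains SREBP processing, was lower, with 9.25 at 16 h, against 9.85 at 0 h, and ABCA1, the cholesterol exporter, was higher, with 7.75 at 16 h, against 6.82 at 0 h. The list's median was 0.00. Among fatty acid genes SCD, the stearoyl desaturase, was lower (10.46 at 16 h, against 11.06 at 0 h), ELOVL6, an elongase, was higher (8.41 at 16 h, against 7.64 at 0 h), and FASN, the fatty acid synthase, had 8.36 at 16 h, against 8.82 at 0 h. The median over the 14 fatty acid genes kept was -0.12. The sterol response element TCACNCCAC, searched on both strands, was in 313 of 27305 promoters (1.15%), and in 0 of the 15 promoters found for the sterol synthesis genes.

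**Figure D3:**
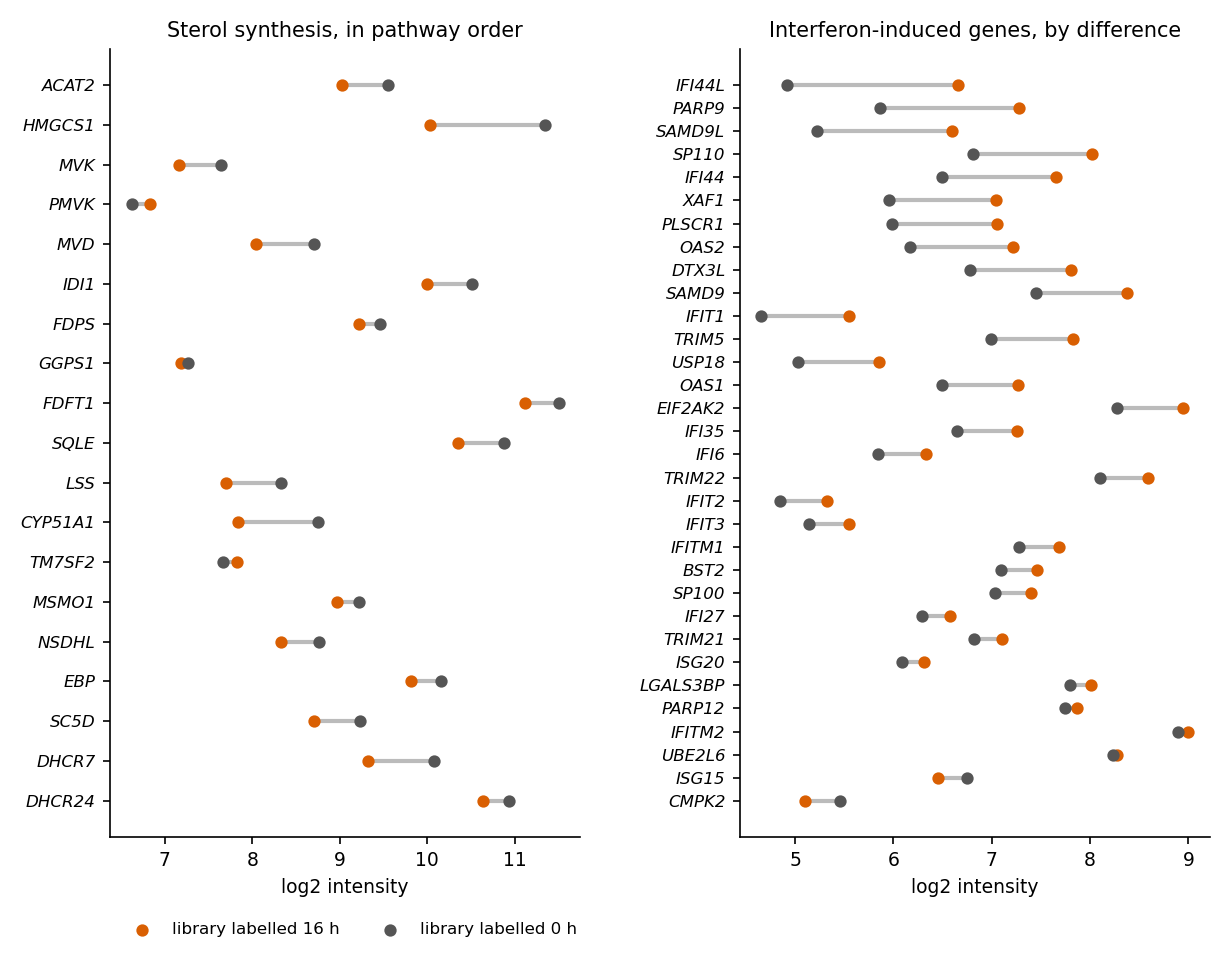
Log2 intensity of 19 of the sterol synthesis genes kept, in pathway order (left), and of the interferon-induced genes kept, ordered by difference (right), in the library labelled 16 h (orange) and the library labelled 0 h (grey). In the left panel the 16 h point lies left of the 0 h point in 17 of 19 genes, and in the right panel it lies right of it in 30 of 32.

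B lineage transcription factors had a median of 0.59 over 30 kept of 31 measured, the largest of all lists as deposited; after the span correction it was 0.42, against 0.57 for the interferon-induced genes. Of the B lineage factors, 15 were at least 1.5-fold higher and 0 lower (50%, against 4.34%), and 24 were above 0. The ID proteins, small helix-loop-helix factors that bind E proteins and keep them off DNA, were all among them. ID3, whose loss by mutation is frequent in Burkitt's lymphoma, had a log2 level of 10.56 at 16 h, against 8.87 at 0 h (3.21-fold). ID2 had 8.21 at 16 h, against 7.22 at 0 h, ID4 had 8.74 at 16 h, against 7.94 at 0 h (1.74-fold), and ID1 had 8.44 at 16 h, against 7.79 at 0 h (1.57-fold). Of the E proteins they bind, TCF12 had 9.02 at 16 h, against 8.17 at 0 h, and TCF4 had 9.97 at 16 h, against 9.32 at 0 h, while TCF3 differed by -0.07. ID1 was under 1.5-fold under all 3 rescalings (0.55 to 0.57), and TCF4 with median centring (0.55) and after the span correction (0.44).

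The Ikaros factors and other lymphoid regulators made up most of the rest of that list. IKZF1, the founding Ikaros factor, had 9.42 at 16 h, against 8.12 at 0 h (2.48-fold), and IKZF2 had 8.32 at 16 h, against 6.91 at 0 h (2.65-fold), while IKZF3 had 9.08 at 16 h, against 9.06 at 0 h. BCL11A, a repressor of early lymphoid cells, had 7.75 at 16 h, against 6.58 at 0 h (2.24-fold). The B cell identity factors PAX5 and EBF1 had 8.97 and 7.06 at 16 h, against 8.16 and 6.20 at 0 h. MYB, FOXP1, ETS1 and ELF1 were higher by 0.87, 0.82, 0.68 and 0.65, and ETS1 and ELF1 were under 1.5-fold with median centring (0.58 and 0.55) and after the span correction (0.53 and 0.50). POU2F2, an octamer factor, was lower by 0.40. Many of these genes are long: the median span of the list was 103 kb.

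Genes reported elsewhere as repressed by BCL6 were taken as a list, and the level of BCL6 itself was 1.44 times lower at 16 h. Of 36 measured, 27 were kept, and 11 of these were at least 1.5-fold higher and 0 lower (40.7%, against 4.34%), with a median of 0.54. PDCD4, an inhibitor of the translation helicase eIF4A, had a log2 level of 11.18 at 16 h, against 9.79 at 0 h (2.62-fold). CDKN1B, the CDK inhibitor p27, had 8.38 at 16 h, against 7.16 at 0 h (2.33-fold). SYK, the kinase that starts B cell receptor signalling, had 8.50 at 16 h, against 7.30 at 0 h (2.30-fold). The phosphatase PTPN6 (8.44 at 16 h, against 7.59 at 0 h), the adaptor BLNK (7.12 at 16 h, against 6.38 at 0 h) and the costimulatory ligands CD86 (8.96 at 16 h, against 8.10 at 0 h) and CD80 (7.99 at 16 h, against 7.39 at 0 h) were higher too. BMI1, a Polycomb protein, and GPR183, an oxysterol receptor of B cell positioning, were higher by 0.77 and 0.78, the second only by 0.49 in the second table. CCL3, a chemokine, had 6.20 at 16 h, against 5.25 at 0 h, and its near-identical copies, read by shared probe sets, had 8.65 at 16 h, against 7.79 at 0 h, so the copies cannot be told apart with certainty. Other known targets were near 0: the CDK inhibitor CDKN1A was at 6.64 at 16 h, against 6.45 at 0 h, and CHEK1, the checkpoint kinase, at 10.01 against 10.21. Without the filter the list's median was 0.26, and after the span correction 0.40.

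BCL6 acts with corepressors, and these were mostly near 0. Of 23 kept, 1 was at least 1.5-fold higher, a share of 4.35% that is close to the 4.34% of all genes kept, and 0 were lower. The higher one was BCOR, which binds the BCL6 BTB domain (7.53 at 16 h, against 6.79 at 0 h). NCOR1, which binds the same domain, had 8.97 at 16 h, against 8.48 at 0 h, and HDAC3, the deacetylase of its complex, had 9.65 at 16 h, against 9.59 at 0 h.

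B cell receptor signalling passes from the receptor chains through SYK and adaptors to PI3-kinase. Of 25 kept among 32 measured, 5 were at least 1.5-fold higher and 0 lower (20%, against 4.34%), with a median of 0.35, or 0.21 after the span correction. Besides SYK, BLNK and GAB1 these were DAPP1, a phosphoinositide-binding adaptor (7.92 at 16 h, against 7.08 at 0 h), and PIK3CD, the lymphocyte PI3-kinase subunit (8.15 at 16 h, against 7.32 at 0 h). BTK, the kinase next to SYK, was at 9.94 at 16 h, against 9.38 at 0 h, just under 1.5-fold, and CD79A, a chain of the receptor, was lower at 9.26, against 9.64 at 0 h. Of the brakes of the pathway, 5 of 22 kept were higher (22.7%, against 4.34%) and 0 lower, with a median of 0.23. LAPTM5, a lysosomal protein that lowers receptor levels, had 9.99 at 16 h, against 8.74 at 0 h (2.38-fold), and reached 11.89 at 96 h. CBLB, a ubiquitin ligase, had 8.93 at 16 h, against 8.08 at 0 h, and DUSP10, a phosphatase of stress kinases, had 6.62 at 16 h, against 5.98 at 0 h. The inhibitory receptor LILRB1 was higher by 0.63, and it and DUSP10 were under 1.5-fold with median centring (0.53 and 0.54) and in the second table (0.53 each).

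Genes that FOXO factors drive and genes that restrain mTORC1 were taken as a list. Of 24 kept, 7 were at least 1.5-fold higher and 0 lower (29.2%, against 4.34%), with a median of 0.30. The sestrins hold mTORC1 back when leucine or growth signals are short, and SESN1 had a log2 level of 9.33 at 16 h, against 7.85 at 0 h (2.78-fold), and SESN3 had 7.06 at 16 h, against 5.54 at 0 h (2.87-fold). SESN2, which ATF4 drives, had 7.36 at 16 h, against 7.70 at 0 h, and the mTORC1 restraints TSC1 and TSC2 differed by -0.03 and 0.02. DDIT4, another mTORC1 brake, had 8.16 at 16 h, against 6.85 at 0 h (2.48-fold), and DEPTOR, an mTOR inhibitor, had 9.83 at 16 h, against 9.02 at 0 h (1.75-fold). BCL2L11, the proapoptotic BIM, had 8.54 at 16 h, against 7.62 at 0 h, and CCNG2, a cyclin of arrested cells, had 8.89 at 16 h, against 8.13 at 0 h. FOXO1 differed by -0.12, and FOXO3 was at 9.06, against 8.55 at 0 h, with a second FOXO3 probe set at -0.04.

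Among cell cycle genes, single inhibitors stood out. RB1, which holds E2F factors back, had a log2 level of 9.25 at 16 h, against 8.01 at 0 h (2.36-fold). With CDKN1B it was the largest difference among the 21 inhibitors, D cyclins and RB family members kept, of which 4 were higher (19.0%, against 4.34%), 1 was lower and the median was 0.06. Most CDK inhibitors were under 1.5-fold, such as CDKN1C at -0.25, CDKN2A at 0.02 and CDKN2B at -0.30. CCND1, a D cyclin, was the lower one, at 5.42 at 16 h, against 6.10 at 0 h, close to the filter level. Of 37 genes of G1/S and DNA replication, 0 were past 1.5-fold either way, 12 were above 0, and the median was -0.15. Among them CDC6, which loads the helicase, had 9.67 at 16 h, against 10.19 at 0 h, and E2F8, a repressive E2F, had 7.76 at 16 h, against 8.25 at 0 h. Both went on to 9.16 and 7.14 at 96 h. Mitosis genes had a median of -0.05 over 34, with HMMR, a spindle protein, as the sole member past 1.5-fold (7.98 at 16 h, against 7.30 at 0 h).

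Genes of the endoplasmic reticulum differed in both directions. HSPA5, the main chaperone of that compartment, had a log2 level of 11.12 at 16 h, against 12.05 at 0 h (1.90 times lower). The chaperone CALR had 10.27 at 16 h, against 10.89 at 0 h, and the secreted stress factor MANF had 8.79 at 16 h, against 9.39 at 0 h. EIF2AK3, the stress sensor PERK that halts translation, was higher, with 9.27 at 16 h, against 8.15 at 0 h (2.17-fold), and EDEM1, which sends misfolded glycoproteins to degradation, had 10.10 at 16 h, against 9.49 at 0 h. Of 28 kept, 2 were higher (7.14%, against 4.34% of all genes kept) and 3 lower (10.7%, against 0.69%), with a median of -0.15. Plasma cell genes were sparse and mixed, with 10 of 15 measured kept: JCHAIN, the joining chain of polymeric antibodies, had 12.40 at 16 h, against 11.57 at 0 h, DERL3, of the degradation channel, had 5.67 at 16 h, against 6.38 at 0 h, and XBP1, the secretory factor, had 9.13 at 16 h, against 8.79 at 0 h.

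**Figure D4:**
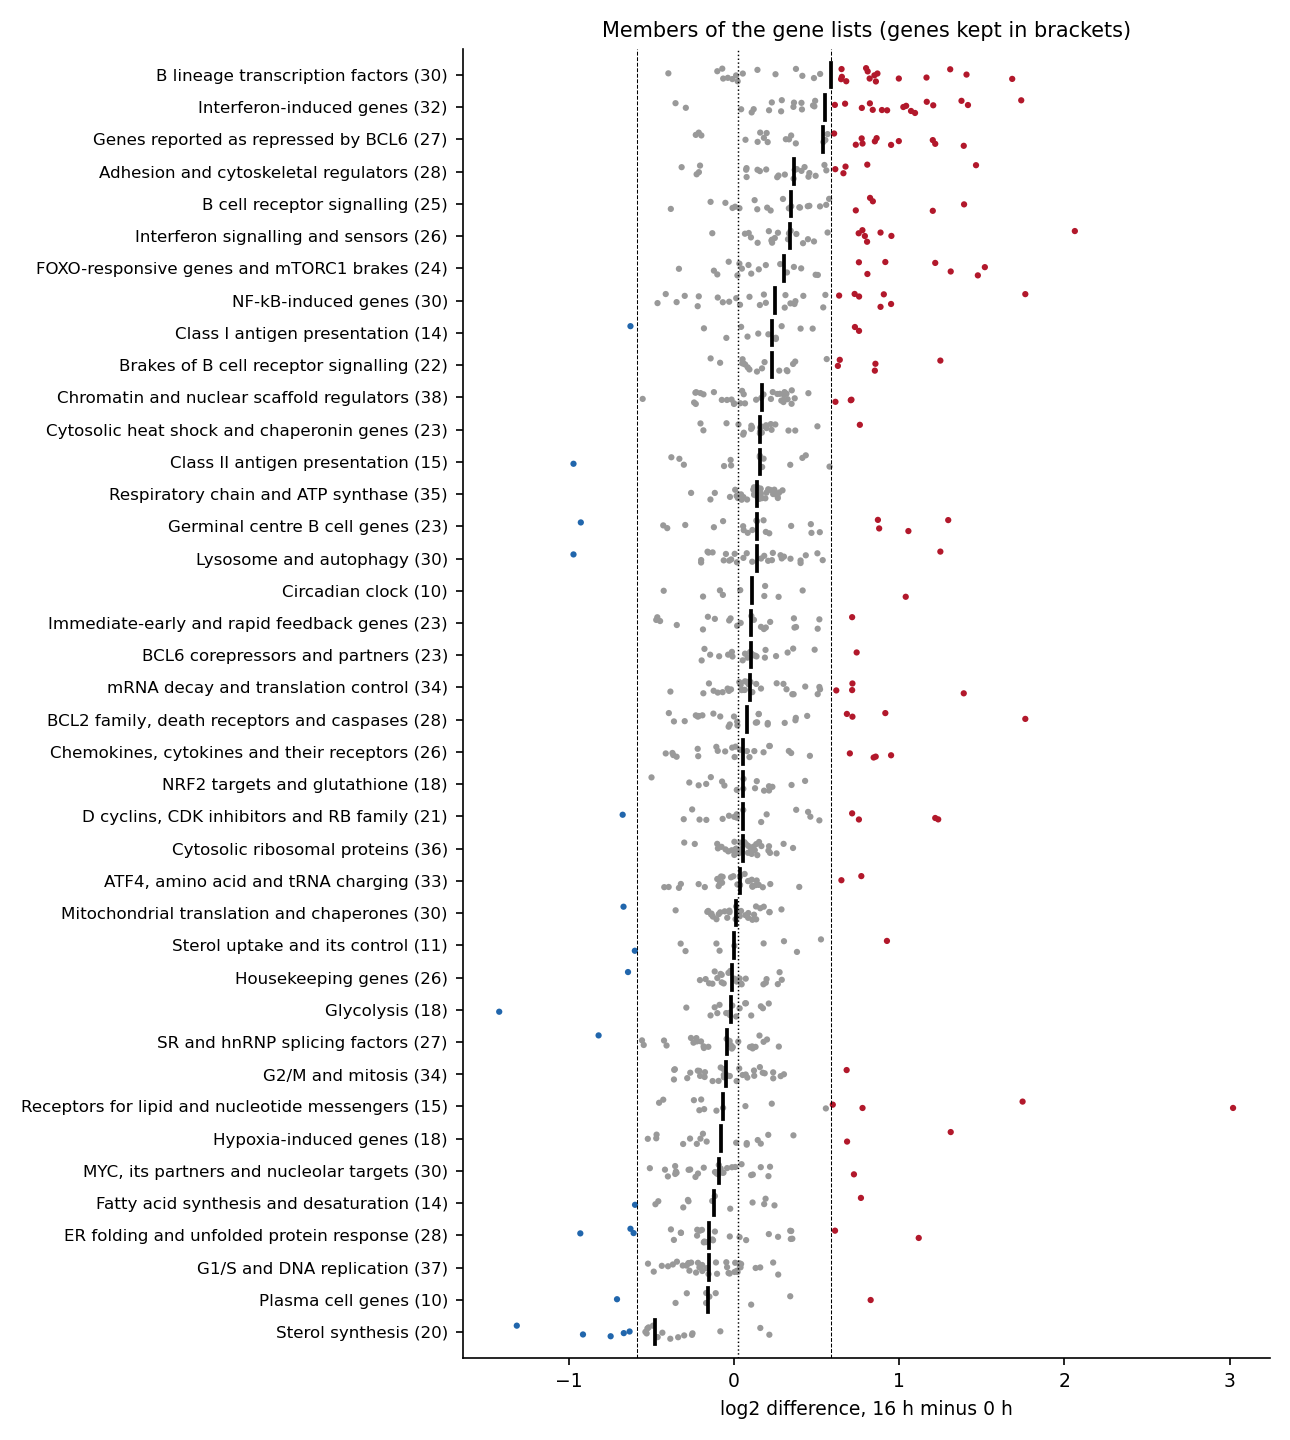
Log2 difference, 16 h minus 0 h, of the kept members of the gene lists, 1 point per gene, with the list's median as a black bar, the median over all genes kept as a dotted line and 1.5-fold as dashed lines. Medians run from 0.59 for B lineage factors to -0.48 for sterol synthesis, and most other lists lie near the dotted line.

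Survival and inflammatory genes were mostly under 1.5-fold. Of 28 death genes kept, 4 were at least 1.5-fold higher (14.3%, against 4.34%) and 0 lower, with a median of 0.08. Besides BCL2A1 and BCL2L11 these were the death receptor FAS (7.67 at 16 h, against 6.96 at 0 h) and APAF1, the scaffold of the apoptosome (7.64 at 16 h, against 6.96 at 0 h). MCL1 was at 10.81 at 16 h, against 10.79 at 0 h, and BCL2 at 6.12, against 5.91 at 0 h. Of 31 genes measured that NF-kB drives, 30 were kept, with a median of 0.25. Of the 30 kept, 7 were higher (23.3%, against 4.34%) and 0 lower. These included BIRC3, an inhibitor of apoptosis ligase (11.50 at 16 h, against 10.75 at 0 h), TNFAIP8 (6.54 at 16 h, against 5.63 at 0 h) and PLEK, a substrate of protein kinase C (8.22 at 16 h, against 7.49 at 0 h). TNFAIP3, the NF-kB brake A20, was at 6.50 at 16 h, against 6.32 at 0 h. Without the filter 7 of the 31 measured were higher, against 2.73% of all genes, and 1 was lower, against 0.55%. The median of those measured was 0.19. BCL2A1 (4.55 at 0 h) passed the filter through the other libraries. Adhesion and cytoskeletal regulators had a median of 0.37 over 28 kept, with 5 higher (17.9%, against 4.34%) and 0 lower. ITGA4, the alpha chain of the integrin VLA4, had 7.31 at 16 h, against 6.51 at 0 h.

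Of antigen presentation genes few were past 1.5-fold. Of 14 class I genes kept, 2 were higher (14.3%, against 4.34% of all genes kept) and 1 lower (7.14%, against 0.69%), with a median of 0.23. TAP1, a peptide transporter, had 8.12 at 16 h, against 7.37 at 0 h, and ERAP2, a trimming peptidase, was higher by 0.73. The lower one was CALR, at -0.63. B2M had 11.33 at 16 h, against 10.85 at 0 h, and HLA-E differed by -0.18. In class II, 8 of 15 genes were above 0, the median was 0.16, and past 1.5-fold 0 were higher and 1 lower (6.67%, against 0.69%). The lower one was LGMN, the lysosomal asparaginyl endopeptidase, 1.96 times lower, with 9.82 at 16 h, against 10.79 at 0 h. HLA-DRA was at 10.24 at 16 h, against 10.57 at 0 h. CIITA, the class II coactivator, was at 5.53 at 16 h, against 5.83 at 0 h. HLA-DMB, a chain of the peptide exchanger, was at 8.97 at 16 h, against 8.39 at 0 h, and the protease CTSS at 9.28 at 16 h, against 8.84 at 0 h.

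Genes of basic metabolism were near 0. Cytosolic ribosomal protein genes had a median of 0.06 over 36 kept, with 0 past 1.5-fold either way, and genes of the respiratory chain had 0.14 over 35, also with 0. In glycolysis, 1 of 18 was past 1.5-fold, ALDOC, described below. GAPDH had 13.67 at 16 h, against 13.64 at 0 h. Genes of the MYC network and nucleolus had a median of -0.09 over 30, with MXD1, a MYC antagonist, higher (7.48 at 16 h, against 6.75 at 0 h) and MYBBP1A, a nucleolar protein, lower by 0.51, under 1.5-fold. PPIF, the mitochondrial cyclophilin, was lower (9.87 at 16 h, against 10.54 at 0 h), and TFRC, the transferrin receptor, was lower among housekeeping genes (10.77 at 16 h, against 11.41 at 0 h).

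The remaining lists had between 0 and 4 genes past 1.5-fold higher, and their shares are to be read against the 4.34% of all genes kept. Of 23 immediate early genes kept, 1 was higher (4.35%, median 0.11), the antiproliferative BTG1. Of 15 receptors for lipids kept, 4 were higher (26.7%, median -0.07), CYSLTR1, GPR174 and GPR183 among them, and without the filter 4 of 28 measured. S1PR2, which confines germinal centre cells, was at 7.91 at 16 h, against 8.33 at 0 h. Of 26 chemokine and cytokine genes kept, 4 were higher (15.4%, median 0.06). Of 33 ATF4 and amino acid genes, 2 were higher (6.06%, median 0.04), the transporter SLC38A2 among them. Of 38 chromatin regulators, 3 were higher (7.89%, median 0.17), SMARCA2, CHD7 and TET2, and all 3 were under 1.5-fold after the span correction, where the median was 0.01. Of 34 RNA decay genes, 4 were higher (11.8%, median 0.10). Of 30 lysosome and autophagy genes, LAPTM5 was higher and LGMN lower (median 0.14). Redox genes that NRF2 drives (18 kept, median 0.06) and long non-coding RNAs, among them hosts of small RNAs (6 kept, median -0.10), had 0 past 1.5-fold, and mitochondrial translation genes (30 kept, median 0.01) had PPIF alone.

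Other genes with large negative differences were few. PMEPA1, a membrane protein that TGF-beta induces and that limits its signal, had a log2 level of 5.56 at 16 h, against 6.64 at 0 h (2.12 times lower). SERPINA9, a germinal centre protease inhibitor, had 7.89 at 16 h, against 8.82 at 0 h (1.90 times lower). Of 23 germinal centre genes kept it was the 1 lower gene (4.35%, against 0.69%), 4 were higher (17.4%, against 4.34%) and the median was 0.14. Among the higher ones were GCSAM (8.77 at 16 h, against 7.72 at 0 h), MEF2C (10.48 at 16 h, against 9.18 at 0 h) and RGS13 (10.30 at 16 h, against 9.42 at 0 h). NUGGC, another member, differed by -0.40. TREX2, an exonuclease, OTUD3, a deubiquitinase, and CYP27B1, the enzyme that activates vitamin D, differed by -0.92, -0.86 and -0.82. SRSF6, a splicing factor, had 9.68 at 16 h, against 10.50 at 0 h (1.76 times lower), and PRPF39, a splicing protein of U1 particles, had 8.01 at 16 h, against 8.78 at 0 h. The median of 27 splicing factors was -0.04. The zinc exporter SLC30A1 was at 6.73 at 16 h, against 7.49 at 0 h, and the zinc finger gene ZNF587, at -0.75, was at -0.34 as the mean of its probe sets. The 20 named genes with the lowest differences spanned 1.68 to 2.68 times lower, with a median span of 14.2 kb.

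A small set of genes was highest or lowest at 16 h alone. In 11 of 11453 genes (0.096%) the 16 h library was at least 1.5-fold above each of the 0, 48 and 96 h libraries, and in 1 gene (0.00873%) it was at least 1.5-fold below each. The lower one was ALDOC, a brain-type aldolase of glycolysis, with log2 levels of 8.65, 7.23, 8.44 and 8.56 over the 0, 16, 48 and 96 h libraries. It was 2.68 times lower at 16 h than at 0 h, the lowest value of all genes kept, and differed from 0 h by -0.22 at 48 h. The muscle-type aldolase, ALDOA, was at 9.52 at 16 h, against 9.55 at 0 h. Among hypoxia-induced genes, which include several glycolytic ones, the median was -0.08 over 18 kept. Of these, 2 were higher (11.1%, against 4.34% of all genes kept), DDIT4 and KDM3A, and 0 lower (against 0.69%). KDM3A was under 1.5-fold with median centring (0.58).

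The ALDOC promoter window is printed whole (chr17:28576846-28577145, - strand, RefSeq, GRCh38.p14) because it belongs to the gene whose level moved and returned. Capitals mark the matches to ACGTG, the core of hypoxia response elements, on either strand, with the overlapping palindrome CACGTG counted on both, and the match to the sterol response element TCACNCCAC.
ALDOC: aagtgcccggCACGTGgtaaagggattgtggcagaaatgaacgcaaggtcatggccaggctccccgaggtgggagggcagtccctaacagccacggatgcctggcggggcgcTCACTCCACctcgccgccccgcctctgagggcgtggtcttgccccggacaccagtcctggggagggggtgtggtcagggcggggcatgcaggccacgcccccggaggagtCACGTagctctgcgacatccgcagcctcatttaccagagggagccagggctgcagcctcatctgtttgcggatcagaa
It holds 3 matches to ACGTG, which is in 2359 of the 8762 promoters of genes kept (26.9%), and 1 match to TCACNCCAC, which is in 98 of them (1.12%). Of the 47 promoters of lower genes, 16 held ACGTG and 2 held TCACNCCAC, that of ALDOC among them.

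Among the 11 genes highest at 16 h were 2 ID genes and a Notch effector. ID4 had log2 levels of 7.94, 8.74, 7.80 and 7.93 over the 0, 16, 48 and 96 h libraries. HEY1, a repressor that Notch and BMP signals induce, had 6.65, 7.42, 6.58 and 6.63 over the same libraries. ID1 had 7.79, 8.44, 7.81 and 7.62 over the same libraries. These 3 were thus back at the 0 h level by 48 h, whereas ID3, at 8.87, 10.56, 9.88 and 10.18 over the same libraries, stayed above it. SLC38A2, a neutral amino acid transporter, had 10.64, 11.41, 10.77 and 10.76 over the same libraries. MYBL1, a MYB relative of germinal centre cells, had 5.48, 6.35, 5.65 and 5.36 over the same libraries. GPRIN3 was the largest of the 11, with 6.31, 7.95, 7.17 and 7.08 over the same libraries, and remained above 0 h. The others were HMMR, the actin regulator WASF1, the vesicle fusion protein STXBP6, the transporter SLC16A13 and RIDA, an imine deaminase. Under each of the 3 rescalings, and in the second table as well, 8 genes met the rule, and ALDOC, GPRIN3, HEY1 and ID4 did so in all 4.

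**Figure D5:**
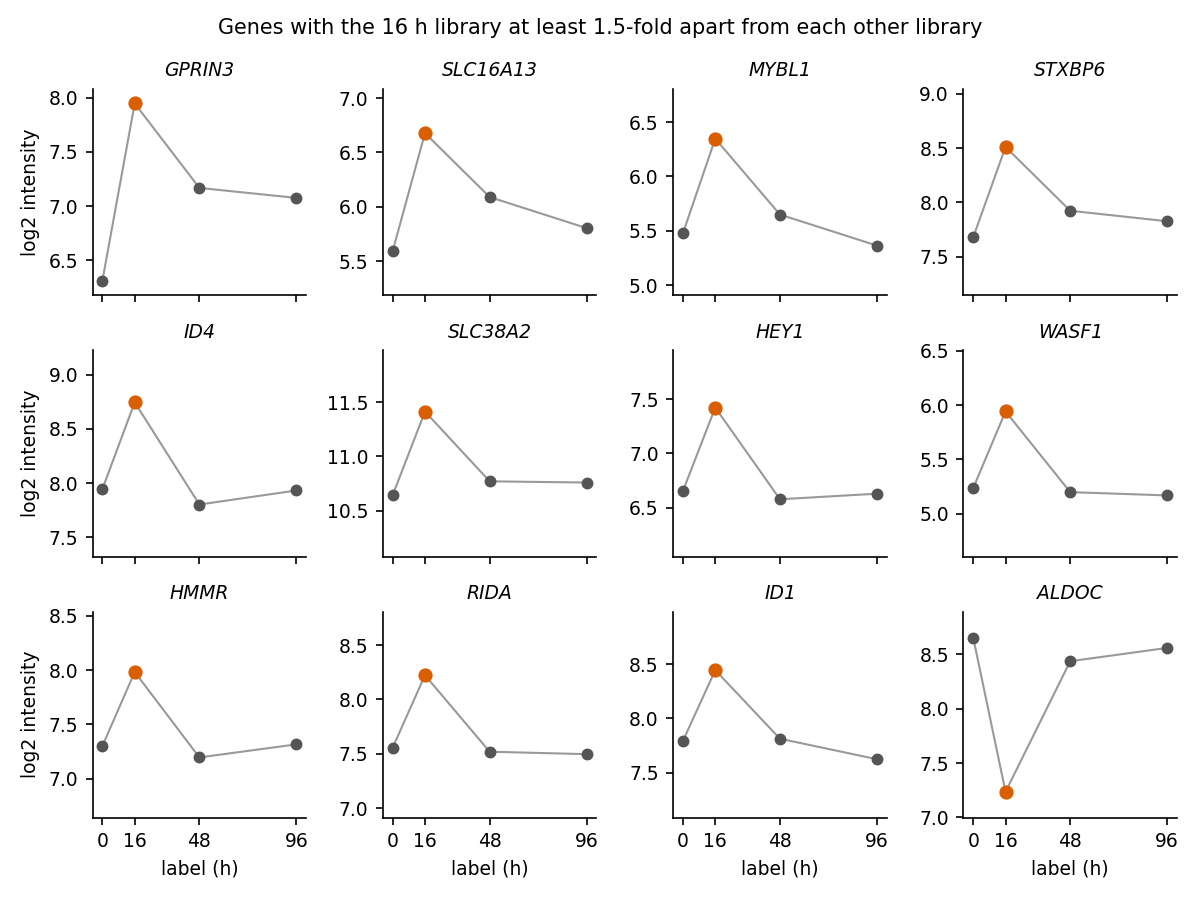
Log2 intensity at the labelled 0, 16, 48 and 96 h of the 12 genes whose 16 h library (orange) lies at least 1.5-fold above or below each other library; each vertical axis spans the same log2 range and no point has a replicate. GPRIN3 reaches 7.95 at 16 h and ALDOC drops to 7.23.

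By a wider rule, 29 genes were at least 1.5-fold higher at 16 h and 11 at least 1.5-fold lower, yet within 0.2 of the 0 h level at 96 h. MET, a receptor tyrosine kinase, had log2 levels of 7.47, 8.40, 8.02 and 7.51 over the 0, 16, 48 and 96 h libraries. SERINC5, a membrane protein that restricts retroviruses, had 9.38, 10.22, 9.81 and 9.52 over the same libraries. DNAJB4, a heat shock cochaperone, had 6.68, 7.44, 6.89 and 6.76 over the same libraries, and it was the sole member past 1.5-fold among 23 cytosolic chaperone genes, whose median was 0.16. Besides ALDOC, the lower genes of this kind were dim or short, such as CCND1, KRT18, LCE1D and CSRP2, with 16 h levels of 5.42, 5.40, 6.86 and 5.56. LCE1D, a skin cornification gene, had 7.52, 6.86, 6.98 and 7.54 over the same libraries.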

How the data were processed

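RNA of 4 libraries of DG75 clone AB7 was amplified, converted to sense cDNA, labelled (phycoerythrin) and read on 1-colour arrays, per the labels' protocols. Deposited were 2 tables with log2 intensity values, the first with 33297 and the second with 28869 probe sets. That the values are log2 was read from their range (2.35 to 14.2 in the first table). Normalization, software and genome build: not given in the sources used here. Arrays have no read depth, and 1 library a time limits the precision.

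The first table gave all main values and the second gave gene symbols. Symbols were updated through RefSeq (GRCh38.p14), which 17014 probe sets matched through an accession, 843 through a current and 836 through an older symbol; 1244 stayed as deposited. In 621 genes with several probe sets, the brightest on average stood for the gene. Probe sets of a gene with identical values were left out when agreement was measured, a choice made after seeing the data. Genes with a mean at or above the 40th percentile were kept, and 10989 of them had a genomic span. A gene was counted past 1.5-fold with no test. Promoters were matched by symbol, 8762 for the genes kept, and the first listed start was used.

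The comparison and the 49 gene lists were chosen with earlier results of these data known. Named genes are BCL6, the 20 largest differences per direction, genes with 16 h apart from each other library, the 8 largest per direction that were within 0.2 of 0 h at 96 h, and in each list every kept member past 1.5-fold and the 4 largest. Counts include small RNA genes, segments of antigen receptors and loci without a name, which the text does not name. List members printed beyond this rule serve as context and were chosen after their values were seen. The alternatives were median centring, quantile and loess scaling, the second table, no filter, a filter at the 60th percentile, the mean of a gene's probe sets, a lowess correction (span 0.4) for genomic span, and thresholds of 1.3-fold and 2-fold. Python 3.11.15, pandas 2.3.3, numpy 2.4.6, scipy 1.17.1 and statsmodels 0.14.6 were used. Some items, values of a few genes and 1 gene list among them, are not reported here.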

Additional observations from a re-analysis of the deposited data

Results flagged for a closer look

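Signal was also present in probe sets outside the comparison, those without exactly 1 gene symbol. Of 5193 such probe sets past the level filter, 176 were at least 1.5-fold higher at 16 h (3.39%) and 211 at least 1.5-fold lower (4.06%), with log2 differences from -2.57 to 4.03. Of the 1364 with several symbols, 36 were higher and 7 lower. The probe set shared by FLI1 and EWSR1 had a log2 level of 8.75 at 16 h, against 7.13 at 0 h, and that shared by EVI2A and EVI2B had 7.62 at 16 h, against 5.77 at 0 h. These genes were named after their values were seen, and which gene each probe set reads cannot be told apart.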

How the results depend on the processing

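No paired analysis was possible because each time has 1 library. Counts of genes past 1.5-fold depended most on scaling and threshold. Median centring gave 324 higher and 236 lower genes, the second of the deposited tables gave 46 lower and the 60th percentile filter 49 lower. At 1.3-fold there were 1893 genes, 1297 higher and 596 lower, and at 2-fold 95, of which 91 were higher and 4 lower. Counts stayed within 1.5 times of their deposited-scale value in 32 of 42 cases. No list median past its tolerance and no named gene past 1.5-fold was turned in direction. Of 158 named genes past 1.5-fold, 119 stayed past it under every alternative that kept them, and 39 were under it in at least 1, most often with median centring (22), the span correction (19) or the second table (18). Of the list medians, relative to that of all genes, 17 moved by over 0.1 and 372 did not.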

Other observations

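Small nucleolar RNA genes, counted but not named by the rule, had a median log2 difference of -0.21 over 93 kept. Of these 93, 1 was at least 1.5-fold higher and 3 lower at 16 h, while of all genes kept 4.34% were higher and 0.69% lower. Long non-coding RNA genes had a median of -0.08 over 80 kept, with 0 past 1.5-fold in either direction. Protein-coding genes had a median of 0.03 over 10609. The circadian factor CLOCK had a log2 level of 5.63 at 16 h, against 4.59 at 0 h. Of 18 clock genes measured, 10 were kept, and CLOCK alone was past 1.5-fold (10%, against 4.34% of all genes kept). CLOCK was under the filter level at 0 h and passed it through the other libraries. Without the filter 1 of the 18 measured was higher, against 2.73% of all genes. The interleukin-10 receptor chains IL10RA and IL10RB had 8.55 and 9.95 at 16 h, against 7.70 and 9.25 at 0 h. TGFBR2, a TGF-beta receptor, had 6.51 at 16 h, against 5.65 at 0 h.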
